A study of Mus musculus with 3 samples.

Results

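Heme oxygenase 1 and 7 further genes of the response to oxidants and metals were followed across the cell clusters of cultured adult mouse heart endothelium. The genes were Hmox1, Nqo1, Gclm, Srxn1, Txnrd1, Slc7a11, Mt1 and Mt2, chosen by name, and they are 8 of the 27985 genes in the count table. They were described in the 7 clusters, numbered 0 to 6, that the authors assigned to the cells. The 6 genes Hmox1, Nqo1, Gclm, Srxn1, Txnrd1 and Slc7a11 are referred to as the NRF2 targets, and Mt1 and Mt2 as the metallothioneins.

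NRF2, the product of Nfe2l2, is a transcription factor that KEAP1 marks for destruction in unstressed cells. Oxidants and reactive electrophiles modify KEAP1, NRF2 then accumulates, pairs with a small MAF protein and binds antioxidant response elements near genes for glutathione synthesis, thioredoxin recycling and haem breakdown. Metallothioneins are small cysteine-rich proteins that bind zinc and copper, and the zinc-sensing factor MTF1 drives them through metal response elements. Endothelial cells and macrophages are both known to express HMOX1, macrophages because they recycle the haem of red cells.

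The cells came from hearts of 12-16-week-old female mice and had been sorted as CD31+ and VE-Cad+, without the blood markers CD41 and CD45 or the stromal markers PDGFRA and PDGFRB. They were taken fresh (0 h) or after 24, 48, 72 or 96 h in co-aggregates with Mesp1(der) PSCs, which are PDGFRA+ stromal cells of the E11.5 embryonic aorta region that descend from Mesp1-expressing mesoderm and carry DsRed. After culture CD31+VE-Cad+PDGFRA- cells of the heart were sorted again, and the medium held 20% fetal calf serum, 0.1 mM mercaptoethanol (a reducing agent) and cytokines at 100 ng/ml. All time points were pooled, 3 pools were made, and messenger RNA was read from the 3′ end with a unique molecular identifier (UMI) on each molecule. Every cell therefore shares the sort, and the cultured ones share the serum, the thiol and the stromal partner. The endothelial identity of the cells rests on these surface markers.

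In all, 9562 cells and 252339042 UMIs were analysed, and the median cell had 21225.5 UMIs. Barcodes carried 1 of 3 library suffixes (3507, 3958 and 2097 cells), which the sources used here tie to none of the pools, and the time point of a cell is unknown. The cells count as 1 sample, no p-value is given, and values by library stand for the spread between 3 libraries of unknown pool. The median depth ran from 7875 UMIs in cluster 1 to 36065.5 in cluster 5, the mitochondrial share of UMIs from 2.58% in cluster 1 to 3.98% in cluster 0, and 13 barcodes occurred in 2 libraries. Clusters 0, 1 and 2 held the endothelial markers Cdh5, Pecam1, Kdr, Egfl7 and Emcn at a summed 38.2, 40.5 and 29.3 UMIs per 10,000 UMIs of the cluster, against 3.29-5.24 in clusters 3 to 6. Markers of other cell types led in the remaining clusters. The summed level of 5 pluripotent or germ cell markers was 48.9 in cluster 3, that of 5 stromal markers 18.7 in cluster 4, and that of 5 megakaryocyte markers 194.6 in cluster 6. Cluster 5 held 13.8 of 5 macrophage markers and 15.6 of 5 neutrophil markers. Cluster 1 also held macrophage markers, at 3.12 in all (4.41, 3.83 and 0.744 in libraries 1, 2 and 3), against 0.0890 in cluster 0 and 0.0766 in cluster 2. The comparison of cluster 1 with clusters 0 and 2 is therefore given with and without the cells that carried such a marker, while correlations, comparisons with all other cells and likeness between genes used all cells of cluster 1.

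All 8 genes are protein-coding. On GRCm38 with GENCODE M21, Hmox1 (ENSMUSG00000005413) lies at chr8:75093621-75100589 on the plus strand, Nqo1 (ENSMUSG00000003849) at chr8:107388225-107403206 on the minus strand, Gclm (ENSMUSG00000028124) at chr3:122245557-122270732 on the plus strand and Srxn1 (ENSMUSG00000032802) at chr2:152105516-152111376 on the plus strand. Txnrd1 (ENSMUSG00000020250) lies at chr10:82833951-82897712 on the plus strand and Slc7a11 (ENSMUSG00000027737) at chr3:49892526-50443614 on the minus strand. The metallothioneins are neighbours on the plus strand, Mt2 (ENSMUSG00000031762) at chr8:94172664-94173568 and Mt1 (ENSMUSG00000031765) at chr8:94179082-94180327.

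The promoters of the metallothioneins and of 3 NRF2 targets are shown because the elements named above can be read in their letters. RefSeq promoter windows on GRCm38.p6, from 250 bases before to 50 bases after a start site, were found for 7 of the 8 genes, 9 windows in all, and Hmox1 had no entry. Both strands were searched for the core of the antioxidant response element, TGACNNNGC, and of the metal response element, TGCGCNC or TGCACNC. Among 32851 windows of the same length, 12.4% held the antioxidant core, while 25.7% held at least 1 metal core, 1.97% at least 3 and 0.517% at least 4. In the sequences of Mt1 (chr8:94178839-94179138) and Mt2 (chr8:94172368-94172667) the capitals mark the metal cores, of which Mt1 had 3 and Mt2 had 4.
Mt1: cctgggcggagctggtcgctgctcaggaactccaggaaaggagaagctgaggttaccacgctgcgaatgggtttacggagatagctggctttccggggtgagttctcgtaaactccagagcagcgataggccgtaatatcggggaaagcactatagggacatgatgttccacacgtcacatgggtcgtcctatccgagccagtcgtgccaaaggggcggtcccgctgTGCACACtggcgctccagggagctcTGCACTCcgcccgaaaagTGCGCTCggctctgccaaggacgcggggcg
Mt2: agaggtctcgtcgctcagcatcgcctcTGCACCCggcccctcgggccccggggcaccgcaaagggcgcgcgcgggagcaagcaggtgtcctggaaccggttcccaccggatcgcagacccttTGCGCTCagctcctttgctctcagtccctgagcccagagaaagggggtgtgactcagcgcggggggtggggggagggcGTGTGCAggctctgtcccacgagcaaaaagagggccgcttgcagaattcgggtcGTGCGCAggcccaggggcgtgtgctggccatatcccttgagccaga
The Mt2 window also held 1 antioxidant core, which began 79 bases before the start site and overlapped no metal core. In Gclm (chr3:122245307-122245606), Srxn1 (chr2:152105274-152105573) and 1 of 3 Txnrd1 windows (chr10:82858956-82859255), all plus strand, the capitals mark the antioxidant core.
Gclm: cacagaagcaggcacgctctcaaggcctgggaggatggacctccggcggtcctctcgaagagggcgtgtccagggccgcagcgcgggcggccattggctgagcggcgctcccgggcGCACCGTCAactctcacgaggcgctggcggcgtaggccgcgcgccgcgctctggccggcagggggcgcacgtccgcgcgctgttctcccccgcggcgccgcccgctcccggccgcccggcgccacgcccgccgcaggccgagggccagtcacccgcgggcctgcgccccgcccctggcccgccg
Srxn1: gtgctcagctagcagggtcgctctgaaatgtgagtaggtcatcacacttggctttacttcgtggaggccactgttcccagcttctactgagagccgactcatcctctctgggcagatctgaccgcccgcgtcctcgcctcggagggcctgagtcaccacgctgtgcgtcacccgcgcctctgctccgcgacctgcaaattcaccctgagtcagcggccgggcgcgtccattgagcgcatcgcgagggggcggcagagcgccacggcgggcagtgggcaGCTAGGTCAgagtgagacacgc
Txnrd1: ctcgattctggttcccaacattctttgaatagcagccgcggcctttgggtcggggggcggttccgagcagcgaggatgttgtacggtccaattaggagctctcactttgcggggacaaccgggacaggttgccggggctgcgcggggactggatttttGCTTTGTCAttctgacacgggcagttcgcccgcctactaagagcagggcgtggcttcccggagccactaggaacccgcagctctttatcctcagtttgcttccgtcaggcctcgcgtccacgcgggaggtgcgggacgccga
Each of these 3 windows held 1 antioxidant core, on the opposite strand. Gclm also held 3 metal cores, 1 of which overlapped the antioxidant core, and Srxn1 held 1. In the windows of Nqo1 and Slc7a11 and in the other 2 of Txnrd1 neither core was found, which says only that these letters are not in these windows. The matches are a description of sequence, and no binding was measured.

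Hmox1, the enzyme that opens the haem ring and releases iron, carbon monoxide and biliverdin, had the widest spread of levels among the abundant members. Its level, in UMIs per 10,000 UMIs of the cluster as in all that follows, was 11.0 in cluster 1 (95% Poisson interval 10.8-11.2, counting error only). By library it was 13.4, 6.85 and 10.4. Cluster 5 followed with 1.84 (1.67, 1.96 and 1.95 by library), then cluster 2 with 0.505 (0.604, 0.463 and 0.446) and cluster 0 with 0.443 (0.450, 0.475 and 0.408). Clusters 4, 3 and 6 had 0.373, 0.226 and 0.0863. The library ranges of clusters 1 and 5 overlapped with no other, those of clusters 2 and 0 and of clusters 0 and 4 did overlap, and cluster 6 was lowest in every library. From cluster 6 to cluster 1 the level spanned 127.2-fold. After thinning every cell to 5000 UMIs, 58.1% of cells in cluster 1 held an Hmox1 UMI, against 24.9% in cluster 5, 20.5% in cluster 2 and 3.88% in cluster 6. Without thinning, the shares of cells above 0.5 UMIs per 10,000 were 68.2%, 35.9%, 37.4% and 7.10%, at median depths of 7875, 36065.5, 22493 and 32186 UMIs. Hmox1 was unevenly spread among cells. The 80 cells of cluster 1 with the highest values held 63.4% of that cluster's Hmox1 UMIs, and the top 158 cells of cluster 5 held 80.7%.

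Slc7a11, the cystine-carrying chain of the antiporter that feeds glutathione synthesis, was the gene most restricted to cluster 1, where 66.5% of all its UMIs lay. Its level there was 0.801 (0.742-0.864), with 0.989, 0.743 and 0.567 in the libraries. The next cluster, 4, had 0.0304, a level 26.3-fold lower, and cluster 6 held a single UMI. Below cluster 1 the library ranges of each pair of neighbours in the order overlapped, although cluster 4 (0.0162-0.0478 over libraries) lay above clusters 0, 3 and 6. At 5000 UMIs per cell 13.6% of cluster 1 cells held an Slc7a11 UMI (10.1-17.1% by library), and no other cluster exceeded 0.837%. The shares above 0.5 UMIs per 10,000 without thinning were 16.3% in cluster 1 and at most 1.93% elsewhere.

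Gclm encodes the modifier subunit of glutamate-cysteine ligase, the rate-limiting enzyme of glutathione synthesis. It was read in every cluster, highest in cluster 1 at 3.91 (4.35, 2.82 and 4.02 by library) and next in cluster 6 at 2.10 (2.17, 2.05 and 2.05). Cluster 0 had 1.02 (1.04, 1.06 and 0.976), clusters 5 and 3 had 0.886 and 0.880, cluster 2 had 0.583 and cluster 4 had 0.441. Clusters 1, 6 and 0 were separated from their neighbours in all libraries, while clusters 5 and 3 were not. At 5000 UMIs a Gclm UMI was found in 61.8% of cluster 6 cells and in 56.0% of cluster 1 cells, although the level was 1.86-fold higher in cluster 1. The shares above 0.5 UMIs per 10,000 were 86.5% and 70.3%. The top 80 cells of cluster 1 held 50.9% of its Gclm UMIs, and the top 31 cells of cluster 6 held 17.6%.

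Srxn1, sulfiredoxin, restores overoxidised peroxiredoxins. In cluster 1 its level was 1.10 (1.17, 0.813 and 1.21 by library), in cluster 6 0.224 (0.217, 0.204 and 0.254) and in cluster 4 0.125 (0.132, 0.131 and 0.113). Clusters 2, 5, 3 and 0 lay at 0.0428, 0.0424, 0.0378 and 0.0278, with overlapping library ranges between neighbours. Srxn1 thus shared with Gclm the order cluster 1 above cluster 6 in every library. At 5000 UMIs 32.5% of cells in cluster 1 and 10.7% in cluster 6 held a Srxn1 UMI, and the unthinned shares were 42.2% and 15.5%.

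Txnrd1, the cytosolic thioredoxin reductase, varied least. It ran from 1.04 in cluster 6 to 2.41 in cluster 1, a span of 2.31-fold, and cluster 1 (2.49, 2.18 and 2.46 by library) was the single cluster whose library range overlapped with no other. Nqo1, a quinone reductase often used as a readout of NRF2, was the rarest member with 407 UMIs in all cells. Cluster 1 had a Nqo1 level of 0.162 (0.193, 0.0862 and 0.169 by library), cluster 3 0.0491 and cluster 4 0.0338, and the other clusters 0.00556-0.0130. At 5000 UMIs 8.59% of cluster 1 cells held a Nqo1 UMI against 2.51% in cluster 3, and the unthinned shares were 11.1% and 1.67%.

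**Figure D1:**
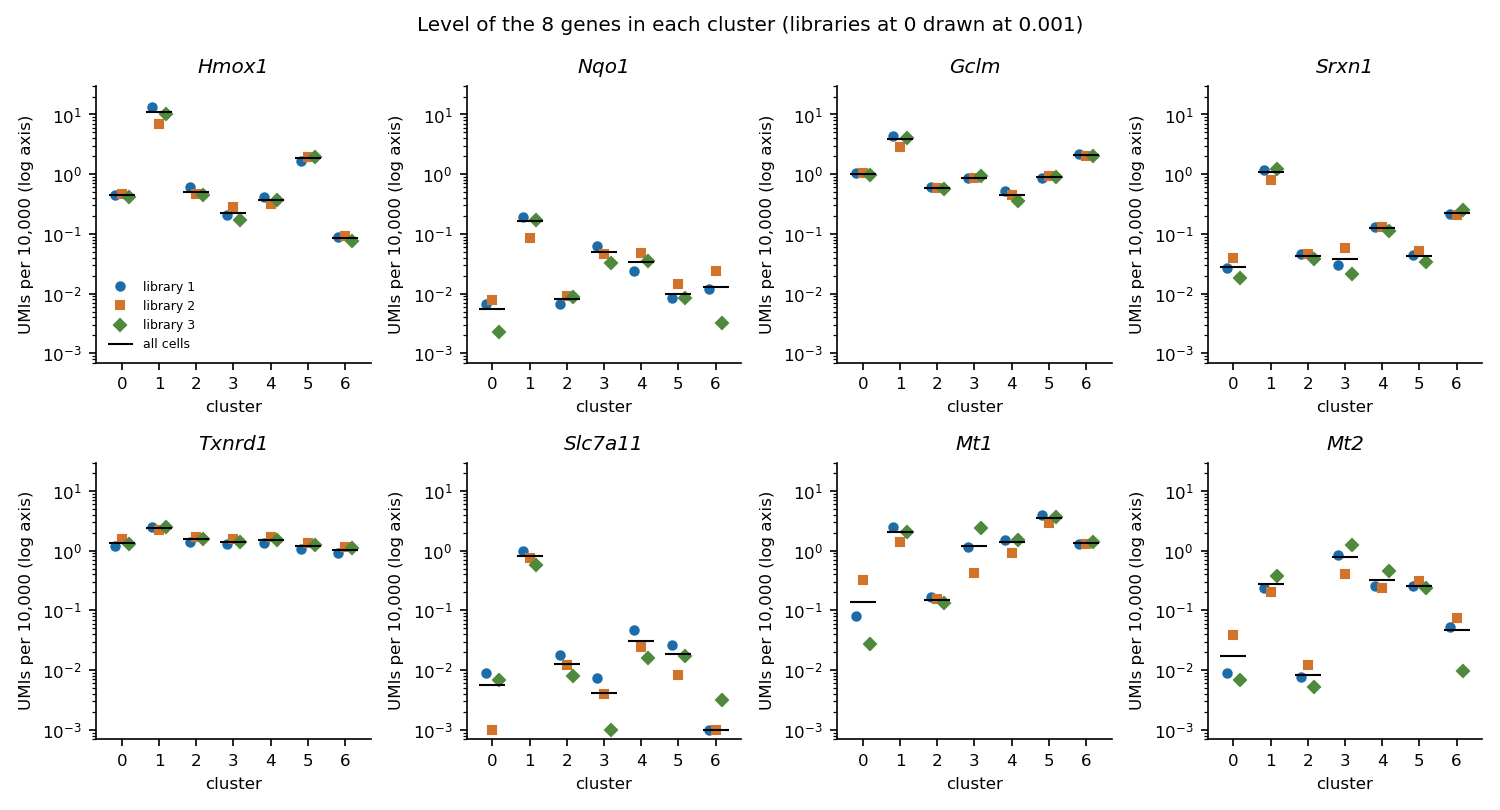
Level of each of the 8 genes in clusters 0 to 6, in UMIs per 10,000 UMIs of the cluster on a log axis. Points are the 3 libraries, black lines all cells of a cluster, and a library with no UMI is drawn at 0.001. Cluster 1 lies highest in the 6 panels of NRF2 targets, cluster 5 in that of Mt1 (3.56) and cluster 3 in that of Mt2 (0.793).

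The metallothioneins followed another order. Mt1 was highest in cluster 5 at 3.56 (3.89, 2.86 and 3.64 by library), where 73.2% of all its UMIs lay. Cluster 1 had 2.09 (2.45, 1.40 and 2.03), cluster 4 had 1.37 (1.52, 0.922 and 1.52), cluster 6 had 1.33 (1.31, 1.31 and 1.39) and cluster 3 had 1.20 (1.13, 0.426 and 2.36). The endothelial clusters 2 and 0 were lowest, at 0.151 (0.167, 0.154 and 0.133) and 0.137 (0.0811, 0.324 and 0.0278). Cluster 5 stood above and clusters 2 and 0 below the rest in every library, and clusters 1, 4, 6 and 3 overlapped with their neighbours. In cluster 0 libraries 2 and 3 differed most, and they held 124 and 12 Mt1 UMIs. At 5000 UMIs 54.1% of cells in cluster 5 and 38.2% in cluster 6 held a Mt1 UMI, against 7.40% in cluster 2 and 4.16% in cluster 0, and the unthinned shares were 70.5%, 58.4%, 10.8% and 4.53%.

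Mt2 was highest in cluster 3 at 0.793 (0.840, 0.415 and 1.24 by library). Clusters 4, 1 and 5 followed at 0.324, 0.275 and 0.261 with overlapping library ranges, then cluster 6 at 0.0464 and clusters 0 and 2 at 0.0175 and 0.00818. Mt2 UMIs per 100 Mt1 UMIs, a ratio read here only between clusters, were 66.0 in cluster 3 (95% interval 59.2-73.4, and 74.2, 97.2 and 52.6 by library). The ratio was 23.6 in cluster 4 (17.0, 26.1 and 29.6), 13.2 in cluster 1 (9.75, 14.6 and 18.5) and 7.33 in cluster 5 (6.61, 10.7 and 6.42). Cluster 6 had the lowest, 3.48 (3.97, 5.62 and 0.686), of which the last rests on 3 Mt2 UMIs. In cluster 3 the ratio was higher than in any other cluster in each library. Both genes were concentrated in few cells of clusters 3 and 4. In cluster 4 the top 52 of 518 cells held 94.8% of the Mt1 and 97.9% of the Mt2 UMIs, and in cluster 3 the top 24 of 239 cells held 84.3% and 67.7%. In clusters 5 and 6 the top 10% of cells held 44.8% and 30.2% of the Mt1 UMIs. Mt1 and Mt2 are close copies, and reads that match both may have been dropped before counting, the extent of which was not tested.

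**Figure D2:**
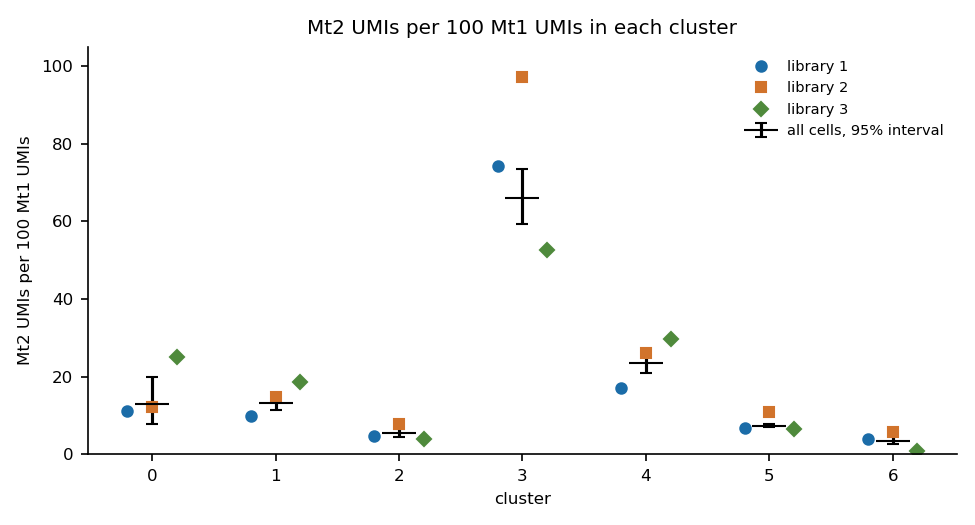
Mt2 UMIs per 100 Mt1 UMIs (vertical axis) in clusters 0 to 6, with 1 point per library and, for all cells of a cluster, a black mark with its 95% counting interval. The 3 libraries of cluster 3 lie between 52.6 and 97.2, and those of the other clusters lie at or below 29.6.

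Cluster 1 was next set against clusters 0 and 2, the other clusters that held endothelial markers. These markers were not at the same level. Cdh5 (9.93 against 4.70) and Pecam1 (7.96 against 3.62) were called higher in cluster 1, and 4 arterial markers summed to 21.9-24.6 over the libraries of cluster 0, and to 3.29 in cluster 1 and 2.20 in cluster 2. A gene was called higher or lower when the levels differed at least 2-fold, in the same direction in all 3 libraries, with at least 0.1 UMIs per 10,000 in the higher group. Since these counts also defined the clusters, a call is a description and not a test. A gene below the minimum in the lower group could be called in a single direction, here and in the comparisons that follow. All 8 genes reached the minimum and 7 were called higher in cluster 1, where 18.7% of 9205 genes tested were, and 29% were called in either direction. Nqo1, Srxn1, Slc7a11 and Mt2 lay below the minimum in clusters 0 and 2 (0.00797, 0.0415, 0.0120 and 0.00895) and entered the comparison only through cluster 1, so these 4 could only be higher and the count is no support. Slc7a11 was 66.7-fold higher (log2 ratio 6.06, interval 5.82-6.30, and 5.85, 6.05 and 6.19 by library), Mt2 30.7-fold and Srxn1 26.5-fold. Hmox1 was 22.0-fold higher (log2 ratio 4.46, and 4.50, 3.88 and 4.55 by library), Nqo1 20.3-fold, Mt1 13.9-fold and Gclm 6.31-fold. Txnrd1 differed by 1.57-fold (log2 ratio 0.65, and 0.84, 0.40 and 0.66 by library) and was not called at 2-fold, but was at 1.5-fold.

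Cells with macrophage or neutrophil transcripts contributed unequally to these differences. At 5000 UMIs, 114 of 745 cells of cluster 1 (15.3%) held at least 1 UMI of the 10 macrophage and neutrophil markers, against 6.93% in cluster 0 and 7.98% in cluster 2. In the 114 cells the level of Hmox1 was 21.4, of Slc7a11 2.18, of Mt1 7.56 and of Mt2 0.671. In the other 631 cells these were 8.51, 0.484, 0.869 and 0.185. Srxn1 (0.943 and 1.14), Gclm (3.56 and 3.93), Txnrd1 (2.43 and 2.40) and Nqo1 (0.133 and 0.168) differed less, and their Poisson intervals overlapped. With the 631 cells alone the same 7 genes were called higher than in clusters 0 and 2, where 18.2% of genes were. Hmox1 was then 17.0-fold higher, Slc7a11 40.3-fold, Srxn1 27.5-fold, Nqo1 21.1-fold and Gclm 6.35-fold, while Mt2 was 20.7-fold and Mt1 5.81-fold higher. Library 2 had the lowest levels in these cells for Hmox1 (9.48, 4.80 and 9.55 by library) and for Mt1 (1.02, 0.268 and 1.05). Among the 684 cells of cluster 1 with a Cdh5 UMI, an endothelial cadherin, Hmox1 was 9.25 and Mt1 1.55. In the 61 cells without one, Hmox1 was 28.3 and Mt1 7.93. Of the 5 macrophage markers 4 reached the minimum in cluster 1, and all 4 were called higher. The 5 summed to 0.0776 in clusters 0 and 2, below the minimum, so these 4 could only be higher. Megakaryocyte markers summed to 1.93 in cluster 1 against 0.236 in clusters 0 and 2, and the 1 that reached the minimum, Pf4, was called higher. The 4 cardiomyocyte markers summed to 0.430 against 0.0995, and the 1 that reached the minimum was called higher (log2 1.58). Since the sum in clusters 0 and 2 was below the minimum, this marker could only be higher. The summed level of erythroid markers, 3 of them globin genes, was also higher in cluster 1, at a summed 4.77 against 0.736 in cluster 0 and 0.235 in cluster 2, but unevenly by library (3.24, 14.5 and 0.188 in cluster 1), and 1 of the 3 that reached the minimum was called. Hmox1 in cluster 1 stood at 13.4, 6.85 and 10.4 in the same libraries, and a relation to the erythroid transcripts was not tested. The part of RNA of these other cell types in the levels of the 8 genes was not tested.

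**Figure D3:**
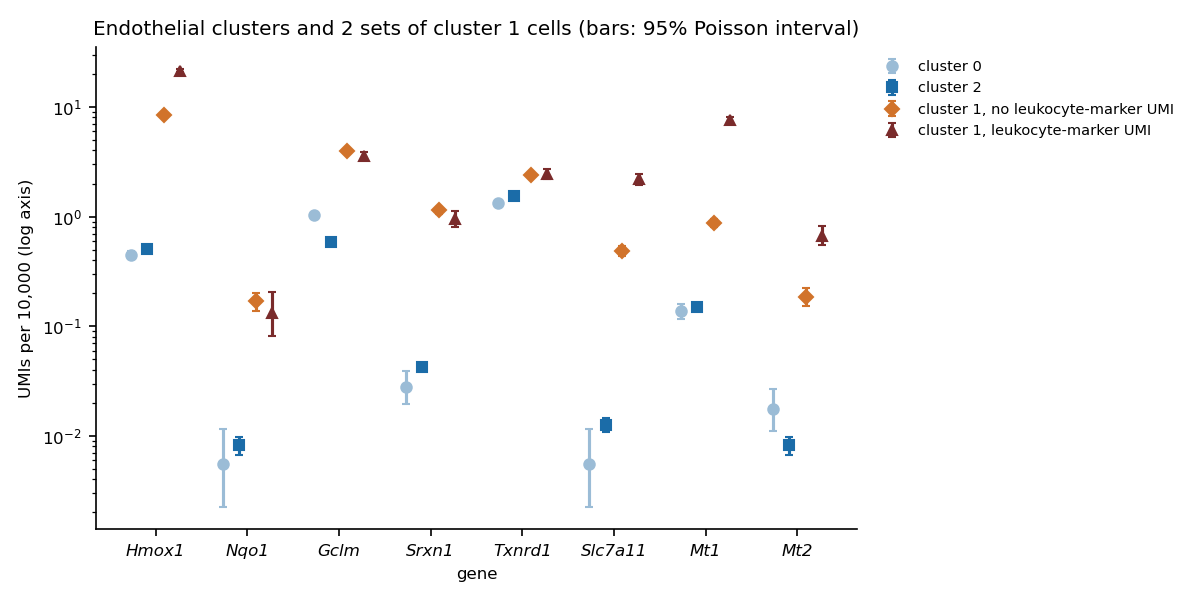
Levels of the 8 genes in UMIs per 10,000 UMIs (log axis) in clusters 0 and 2 and in cluster 1 cells with and without a UMI of the 10 macrophage and neutrophil markers. Bars are 95% Poisson intervals. Hmox1, Slc7a11, Mt1 and Mt2 are higher in the 114 marker-bearing cells, and 7 of the 8 genes, all but Txnrd1, were called higher in the 631 other cells than in clusters 0 and 2.

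More of the NRF2 targets were detected per cell in cluster 1 than in the other clusters. At 5000 UMIs per cell, 40% of cluster 1 cells held at least 3 of the 6 genes (exact binomial interval 36.5-43.6, and 33.9-47.2 over libraries), and 2.28% held all 6. In the other clusters 0.837-4.72% held at least 3. This share also rises with the share of cells that hold each single gene. It does not by itself show that the genes occur together in the same cells. Within cluster 1 the share was 52.6% in the marker-bearing cells and 37.7% in the others. Across the 799 cells of cluster 1, Pearson's r of ln(1 + UMIs per 10,000) was 0.64 between Hmox1 and Gclm, 0.56 between Gclm and Srxn1, 0.53 between Hmox1 and Txnrd1 and 0.48 between Hmox1 and Slc7a11. The other pairs of NRF2 targets had an r of 0.22 to 0.51, lowest for Nqo1 and Slc7a11. At 5000 UMIs per cell Spearman's rank correlation of the first 4 pairs was lower, at 0.50, 0.39, 0.41 and 0.37. Of cluster 1 cells with an Hmox1 UMI at 5000 UMIs, 69.3% held a Gclm UMI, against 37.5% of those without. For Slc7a11 these shares were 20.8% and 3.53%, and for Srxn1 39.5% and 22.8%. Mt1 and Mt2 had an r of 0.52, 0.56, 0.71 and 0.80 in clusters 1, 5, 3 and 4, and of 0.51, 0.20 and 0.34 in clusters 0, 2 and 6. Cells of a cluster share their libraries, and the values are descriptions.

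**Figure D4:**
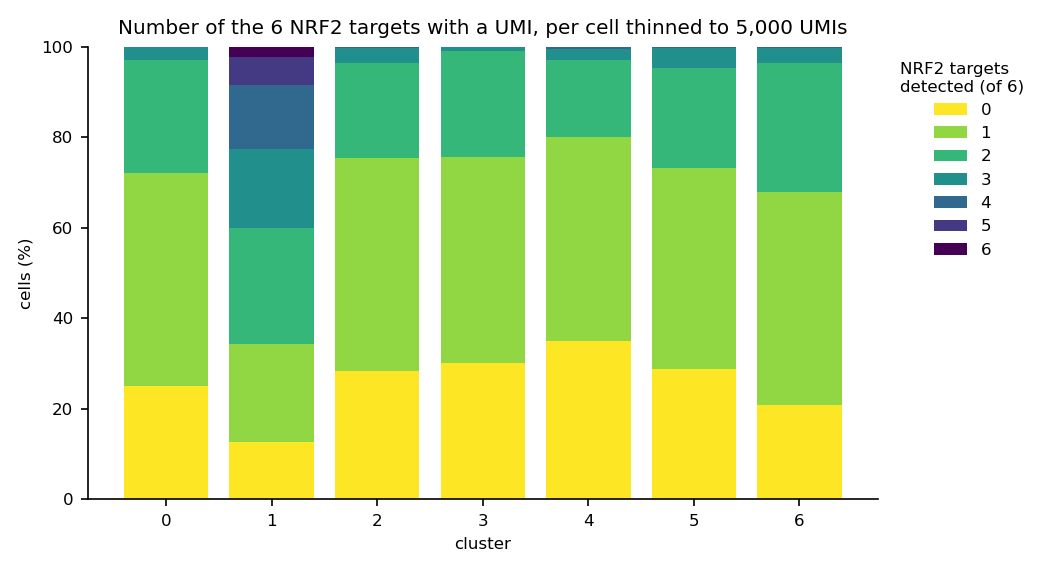
Share of cells (%) of clusters 0 to 6 that held a UMI of 0 to 6 of the 6 NRF2 targets, after thinning to 5000 UMIs per cell. In cluster 1 40% of cells held at least 3 of them, and in no other cluster more than 4.72%. These shares also rise with the share of cells that hold each single gene.

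Of 20 further genes known as NRF2 targets, 12 were called higher and 0 lower in cluster 1 than in clusters 0 and 2, beside 18.7% and 10.3% of all genes tested. Their median log2 ratio was 1.63, beside 0.08 over all genes. Listed genes low in clusters 0 and 2, such as Osgin1 and Ephx1, also entered only through cluster 1. Osgin1, an oxidative stress-induced growth inhibitor, was highest by ratio (0.194 against 0.00464, log2 5.38), followed by Ephx1, microsomal epoxide hydrolase (0.214 against 0.00745, log2 4.84). Fth1, the ferritin heavy chain, had a level of 138.5 against 12.3, and Sqstm1, the autophagy receptor that binds KEAP1, 6.81 against 0.486. Other targets were not called. Tkt, transketolase, stood at 1.76 against 3.44 (log2 -0.96), Txn1, thioredoxin, at 8.24 against 7.94 and Prdx1, a peroxiredoxin, at 13.6 against 11.6. Without the marker-bearing cells the count was again 12 of 20, the median 1.46, and Fth1 stood at 53.3.

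Of 8 listed NRF2 regulators 5 were called higher in cluster 1, beside 18.7% of all genes tested. Mafk lay below the minimum in clusters 0 and 2 and could only be higher. They included Nfe2l2 itself (1.91 against 0.592), and the small MAF genes Mafk (0.267 against 0.0508, log2 2.40) and Maff (0.743 against 0.151, log2 2.30). Keap1 (0.679 against 0.412), Cul3, the ligase scaffold (1.39 against 1.38), and Bach1, a haem-sensing repressor of Hmox1 (0.717 against 0.645), were not called. Of the 8 haem and iron genes 7 reached the minimum and 4 were called higher, beside 18.7% of all genes tested. Among these, Blvrb, Fth1 and Ftl1 are also on the list of further NRF2 targets and were counted there too. Slc48a1 reached it through cluster 1 alone. Slc48a1, a haem transporter, stood at 1.41 against 0.0819 (log2 4.11) and Blvrb, a biliverdin reductase, at 2.32 against 0.144 (log2 4.01). Slc40a1, the iron exporter ferroportin, was at 0.125 against 0.109 and Tfrc, the transferrin receptor, at 0.172 against 0.206, and neither was called.

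Slc7a11 is also a known target of ATF4, a factor of the amino acid and unfolded protein responses. In cluster 1, 6 of 8 ATF4-list genes that reached the minimum were called higher and 1 lower, beside 18.7% and 10.3% of all genes tested. Trib3, Ddit3 and Sesn2 (0.0527) lay below the minimum in clusters 0 and 2 and could only be higher. Trib3, a pseudokinase (0.303 against 0.0251, log2 3.60), and Ddit3, which encodes CHOP (0.650 against 0.0678, log2 3.26), were the highest by ratio. Slc3a2, the heavy chain that pairs with SLC7A11, had 2.79 against 0.907, and Psat1, an enzyme of serine synthesis, was lower at 0.127 against 0.626 (log2 -2.30). Of the 8 other antioxidant genes that reached the minimum 3 were called higher and 2 lower. Sod2, mitochondrial superoxide dismutase, had 4.21 against 0.815 (log2 2.37) and Prdx5, a peroxiredoxin, 4.06 against 0.911 (log2 2.15). Gpx3, a secreted glutathione peroxidase, was lower at 0.0725 against 0.484 (log2 -2.74), as was Prdx2 at 3.67 against 7.96 (log2 -1.12). Gpx3 lay below the minimum in cluster 1 and could only be lower.

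Beside the metallothioneins, 4 of 6 listed metal-handling genes reached the minimum. Slc39a14, an importer of zinc and iron (0.243 against 0.0666, log2 1.86), and Slc30a1, a zinc exporter and MTF1 target (0.283 against 0.135, log2 1.07), were called higher. Slc39a10, a zinc importer, was lower (0.617 against 1.36, log2 -1.14), and Mtf1 was at 0.306 against 0.178 and not called. Of 4 glucocorticoid targets, listed because glucocorticoids also induce metallothioneins, 3 reached the minimum and Per1 alone was called (0.155 against 0.0390, log2 1.99). Genes of tissue dissociation and heat shock moved with cluster 1 as well. Of 7 listed, 6 were called higher, among them Hspb1, a small heat shock protein (5.64 against 0.194, log2 4.86), and Egr1, an immediate early gene (log2 4.58). The summed level of the list was 27.3 against 3.51. Slc39a14, Per1 and Hspa1b, a heat shock gene, lay below the minimum in clusters 0 and 2 (0.0666, 0.0390 and 0.0330). They could only be higher, beside 18.7% of all genes tested. Without the marker-bearing cells of cluster 1, the counts of genes called in each direction were the same for all 8 pathway lists. Prdx5 then stood at 1.98 (log2 1.12), Sod2 at 2.73 (log2 1.74) and Slc48a1 at 1.19 (log2 3.86). The part of these genes and of the lower depth of cluster 1 in the levels of the 8 genes was not tested.

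**Figure D5:**
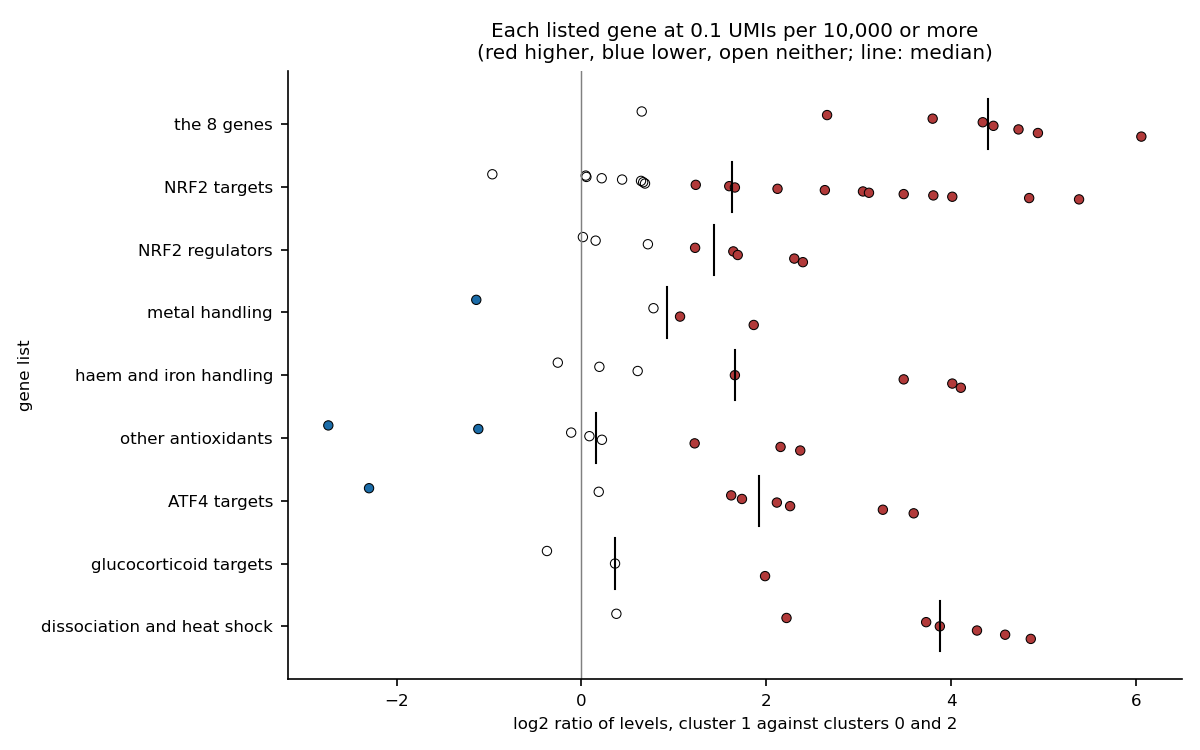
Log2 ratio of levels, cluster 1 against clusters 0 and 2 (horizontal axis), for the genes of each list that reached 0.1 UMIs per 10,000 in 1 of the groups. Red points were called higher, blue lower and open neither, and the vertical line in each list is its median (1.63 for the further NRF2 targets). Genes below the minimum in clusters 0 and 2 could only lie to the right.

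Clusters 5 and 6, which have the highest Runx1 of the series, were set against the endothelial clusters 0, 1 and 2. The study describes Runx1 as robust in most cells of clusters 5 and 6, and Sox17 as high in clusters 0, 1 and 2. Of the 8 genes 2 were called higher, Mt1 at 3.23 against 0.250 (12.9-fold, log2 ratio 3.69, and 3.46, 3.59 and 3.97 by library) and Mt2 at 0.229 against 0.0228 (10.0-fold), where 9.74% of 8887 genes tested were. No member was called lower, where 16.1% of genes were. Thus 2 of the 5 members that reached the minimum were called, beside 25.8% of all genes tested, and Mt2 reached it only through clusters 5 and 6. Nqo1, Srxn1 and Slc7a11 stayed below the minimum in both groups. Hmox1 stood at 1.58 against 1.05, with log2 ratios of -0.04, 1.19 and 0.91 in the libraries. Cluster 1 carried 9239 of the 16890 Hmox1 UMIs of clusters 0, 1 and 2. Against clusters 0 and 2 alone, where 10.3% of genes were higher and 15.2% lower, Hmox1 was 3.15-fold, Mt1 21.6-fold and Mt2 25.6-fold higher, and all 3 were called.

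Among the pathway lists, 4 of 17 further NRF2 targets that reached the minimum were called higher in clusters 5 and 6 and 1 lower. Of all genes tested, 9.74% were called higher and 16.1% lower, which stands beside each count in this paragraph. The median log2 ratio of the 17 targets was 0.57, beside -0.05 over all genes. Blvrb (0.980 against 0.257, log2 1.93) and G6pdx, the entry enzyme of the pentose phosphate pathway (0.300 against 0.104, log2 1.53), led upward, and Mgst1, a microsomal glutathione transferase, was the one lower (log2 -1.01). Of the regulators 0 were higher and Maff alone was lower (0.0337 against 0.181, log2 -2.43). Mgst1 and Maff lay below the minimum in clusters 5 and 6, so both could only be lower. Of the haem and iron genes 4 of 7 were higher, among them Slc48a1 (log2 1.62) and Slc40a1 (log2 1.46). Blvrb, which is on both lists, was counted again here. Gpx1, the main cytosolic glutathione peroxidase, was higher at 11.8 against 3.37 (log2 1.81), as was Prdx5 (log2 1.07), and no gene of the antioxidant list was lower. In the ATF4 list Psat1 alone was called, higher at 1.28 against 0.600 (log2 1.09). In the metal list Slc39a10 alone was called, lower at 0.451 against 1.32 (log2 -1.55). Of 2 glucocorticoid targets at the minimum 0 were called. Of the dissociation and heat shock genes 4 of 7 were higher and Hspb1 was lower (log2 -2.22), with Fos, an immediate early gene, at 4.92 against 0.682 (log2 2.85).

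Between clusters 5 and 6, 5 of the 6 members that reached the minimum were called, beside 18.1% of all genes tested. Of these 5, Hmox1, Mt2 and Srxn1 were below the minimum in the lower cluster, which fixed their direction. Higher in cluster 5 were Hmox1 (21.3-fold, log2 ratio 4.41, and 4.22, 4.42 and 4.68 by library), Mt2 (5.62-fold) and Mt1 (2.67-fold), where 9.71% of 8341 genes tested were. Lower in cluster 5, and so higher in the megakaryocyte marker-bearing cluster 6, were Srxn1 (5.28-fold, log2 -2.40) and Gclm (2.37-fold, log2 -1.24), where 8.43% of genes were. Txnrd1 differed by 1.13-fold and was not called, and Nqo1 and Slc7a11 were below the minimum. Of the further NRF2 targets 4 of 16 were higher in cluster 5 and 0 lower, led by Gsta4, a glutathione transferase (log2 1.20), and Pgd, of the pentose phosphate pathway (log2 1.10). Of the haem and iron genes Slc40a1 alone was called (0.353 against 0.0102, log2 5.11). Gpx4, which removes lipid peroxides, was higher in cluster 6 (11.7 against 4.77, log2 -1.30), and Gpx1 was higher in cluster 5 (13.1 against 4.74, log2 1.46). No gene of the regulator list was called, nor any of 3 glucocorticoid targets. Atf3, a stress-induced factor of the ATF4 list (log2 2.53), and Slc39a14 (log2 2.87) were the only ones called in their lists, both higher in cluster 5. Higher there too were 3 of 7 dissociation and heat shock genes, led by Hspa1a (log2 3.05). Gsta4 (0.0483), Slc40a1 and Slc39a14 (0.0139) lay below the minimum in cluster 6 and could only be higher in cluster 5.

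Within cluster 5 the Hmox1 level differed between cells grouped by other genes. At 5000 UMIs, 685 cells held C1qb, a complement gene of macrophages, and no Mpo, 325 held Mpo, the myeloperoxidase of granulocyte precursors, and no C1qb, and 507 held neither. The Hmox1 level was 4.17 in the C1qb cells (3.75, 4.29 and 4.61 by library), 0.172 in the Mpo cells (0.192, 0.219 and 0.121) and 0.137 in cells with neither. The log2 ratio of C1qb to Mpo cells was 4.60 (interval 4.41-4.79), and Hmox1 was the single member called, where 7.80% of 8113 genes tested were higher. Mt1 was at 3.86, 2.54 and 4.08 in the C1qb, Mpo and remaining cells, and Mt2 at 0.144, 0.0770 and 0.567. Gclm was at 0.599, 0.810 and 1.34 and Txnrd1 at 1.11, 1.26 and 1.23. Thus Mt2 and Gclm, and by a smaller margin Mt1, had their highest level in cells that held neither C1qb nor Mpo.

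Against all other cells, 6 of the 8 genes were called higher in cluster 1, all but Txnrd1 (1.70-fold) and Mt1 (1.82-fold), where 18.6% of genes were and 30.1% were called either way. Without cells above 3 times their cluster's median depth Mt2 was not called, and with thinned counts Mt1 was. In cluster 2, 5 were called lower, Hmox1, Gclm, Srxn1, Mt1 and Mt2, where 11.1% of genes were, and Mt1 was 16.4-fold lower. None was higher there, beside 6.11% of genes. Cluster 0 had 3 lower, Hmox1, Mt1 and Mt2, where 6.09% of genes were, and none higher, where 8.97% were (15.1% either way). Mt2 was called higher in cluster 3 (8.12-fold, where 10.3% of genes were) and in cluster 4 (3.02-fold, where 13% were), and Hmox1 lower in both (5.18-fold and 3.17-fold, where 24.3% and 7.88% were). Of all genes, 34.6% were called in cluster 3. Cluster 5 had Mt1 (8.55-fold) and Mt2 (3.65-fold) higher, where 8.20% of genes were, and Srxn1 lower (2.44-fold), where 16.7% were. Cluster 6 had Gclm (2.62-fold) and Srxn1 (2.71-fold) higher, where 7.99% of genes were, and Hmox1 (13.8-fold) and Mt2 (2.60-fold) lower, where 17.6% were. The minimum likewise fixed the direction of the calls of Srxn1 and Mt2 in clusters 2 and 5. It also fixed those of Nqo1, Srxn1 and Slc7a11 in cluster 1. The same held for Mt2 in clusters 0 and 3, and for Hmox1, Srxn1 and Mt2 in cluster 6.

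The genes most like each member were sought among 5500 genes that reached 0.5 UMIs per 10,000 in a cluster, by Pearson's r of log2(level + 0.1) over 21 profiles, 1 for each cluster and library. The profiles share cells' clusters and libraries, so r is a description. The nearest to Hmox1 was Dusp1, a phosphatase of MAP kinases (r = 0.979, 4.44 in cluster 1 and 1.67 in cluster 5), followed by Il4ra, the interleukin 4 receptor chain (0.954), and Pgs1 (0.952). To Slc7a11 they were Ccl7, a chemokine (0.995), Ifit1 (0.991) and Irf7 (0.988), the last a pair of interferon-induced genes, at 2.75, 1.54 and 1.44 in cluster 1. To Srxn1 they were Snapc1 (0.962), Akr1b8, an aldo-keto reductase (0.962), and Nr1d1 (0.958). Nqo1 lay nearest to Ifi27 (0.942), Phf11d (0.932) and AA467197 (0.929), Gclm to Ehd1 (0.926), Anxa7 (0.919) and Syf2 (0.918), and Txnrd1 to N4bp1 (0.929), Sec14l1 (0.920) and Trib1 (0.917). The likeness was lower for the metallothioneins, with Bnip3 (0.864), Aldh2 (0.856) and Atf1 (0.823) for Mt1 and Fbxo22 (0.873), Spint2 (0.869) and Hax1 (0.857) for Mt2. Between members r was 0.89 for Srxn1 and Slc7a11, 0.86 for Hmox1 and Slc7a11 and 0.66 for Mt1 and Mt2, and it was 0.34 for Hmox1 and Mt1. Outside cluster 1, Slc7a11 lay at 0.0304 or below and Nqo1 at 0.0491 or below, under the added 0.1. Every r given for these genes therefore mostly sets cluster 1 against the rest.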

How the data were processed

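Single-cell 3′ transcriptomes of mouse heart endothelial cells, fresh or co-aggregated with PSCs, were analysed from 3 pools. Per the labels and the methods, the authors aligned reads to mm10 and counted UMIs with Cell Ranger 3.1.0, aggregating libraries with batch-effect removal, kept singlets of at least 5000 UMIs, and clustered them with scanpy. The 9562 cells deposited match the number stated, although 90 held fewer than 5000 UMIs. The labels' processing notes also name Seurat 3.1.5. The gene annotation is not given in the sources used here. The genetic label of the donor mice is not reported here. The authors deposited counts of UMIs per gene and cell. They also deposited these values as a natural log, ln(1 + counts per 10,000 UMIs of the cell), which differed from a recomputation by at most 6.2e-15. The deposited cluster table also holds the authors' UMAP scores (coordinates without a unit), which were not used.

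Of 27998 gene rows 27722 were named from GENCODE M21 and 276 kept their identifier, and summing equal names left 27985. Levels are summed UMIs per 10,000 UMIs of a group, with exact Poisson intervals. Shares carry exact Clopper-Pearson intervals and ratios exact conditional binomial intervals, all at the 95% level and for counting error only. A group without a UMI was set to 3 counts in ratios. Cells above 0.5 counts per 10,000 were called positive, and shares were also taken after drawing 5000 UMIs per cell without replacement, which left out 90 cells, 54 of them from cluster 1. Pearson correlations among cells used ln(1 + counts per 10,000), and rank correlations used the thinned counts. No doublet caller was run. The 282 cells above 3 times their cluster's median depth were left out in an alternative. No test between groups was run, since no map ties cells to samples and the matrix counts as 1 sample.

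The members, lists and comparisons were chosen with earlier results of these data known. Genes named are the members, listed pathway genes with the largest ratios in either direction or a role beside a member, cell type markers, and the 3 genes most like each member. Pathway genes named beyond the largest ratios were chosen after their values were seen. The comparison step was tested on simulated data. Alternatives were the mean over cells, totals without mitochondrial and ribosomal protein genes, size factors, thinned counts, the deposited normalized values, leaving out each library, no minimum level and a 1.5-fold threshold. Alternatives without the marker-bearing cells of cluster 1, with its Cdh5 cells only, and without cluster 1 were chosen after seeing the data. Python 3.11.15, numpy 2.4.6, scipy 1.17.1, pandas 2.3.3 and matplotlib 3.10.9 were used.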

Additional observations from a re-analysis of the deposited data

How the results depend on the processing

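No paired analysis was possible because the results come from no test: no map ties cells to samples, and the matrix counts as 1 sample. Ratios within each library suffix are given in its place. The 7 genes called higher in cluster 1 than in clusters 0 and 2, the 3 higher and 2 lower in cluster 5 than in cluster 6, and the 2 higher in clusters 5 and 6 than in clusters 0, 1 and 2 stayed within 1.5 times of these counts under the alternatives run, and no called ratio of a member changed direction. Other counts were small and moved by single genes. For clusters 5 and 6 against clusters 0, 1 and 2, 1 gene in place of 0 was called lower with the mean over cells, thinned counts or the deposited normalized values (Srxn1) and with no minimum level (Slc7a11), and without library 1 Hmox1 was also called higher, 3 in all. Against all other cells and with no minimum level, the number called lower was 6 in cluster 0, 3 in cluster 3 and 2 in cluster 5, and the number called higher was 2 in clusters 3 and 4. In cluster 3, 2 genes were lower (Srxn1 added) with the mean over cells, totals without mitochondrial and ribosomal protein genes, thinned counts or the deposited values. In cluster 4, 2 were lower (Gclm added) under those 4, under size factors, without cells above 3 times the median depth and at 1.5-fold, and 1-2 when a library was left out (2 without library 1 or 2). In cluster 5, 0-1 were lower and 2-3 higher when a library was left out, Srxn1 being lost and Hmox1 gained without library 1. Hmox1, at 2-fold within rounding, was also gained with totals without mitochondrial and ribosomal protein genes, size factors, no cells above 3 times the median depth, or 1.5-fold. In cluster 1, 5 were higher without those cells (Mt2 lost) and 7 with thinned counts (Mt1 gained), in place of 6. In cluster 6, 1 was higher (Srxn1 lost) with the mean over cells, thinned counts or the deposited values, and 1-2 were lower when a library was left out, Mt2 being lost without library 3. The causes were not tested. Scaling moved the median log2 ratio of all genes from 0.08 to -0.05 for cluster 1 against clusters 0 and 2, and from -0.05 to 0.09 for clusters 5 and 6 against clusters 0, 1 and 2. Counts limit Nqo1 and Slc7a11, whose levels outside cluster 1 rest on 271 and 339 UMIs.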
